A study of Homo sapiens with 6 samples.

Results

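The transcripts of 8 enzymes of serine synthesis and folate-bound one-carbon metabolism were followed in AsPC-1, a long-established line of human pancreatic cancer cells. The enzymes were PHGDH, PSAT1, PSPH, SHMT1, SHMT2, MTHFD1, MTHFD1L and MTHFD2, chosen by name, and all 8 were found among the 58735 genes of the table. RNA was sequenced in 6 libraries. The Vector group (n = 3) was labelled as wild type in genotype and had received an empty virus, and the OE-MMP28 group (n = 3) had received a lentivirus with the MMP28 cDNA. MMP28 is a secreted matrix metalloproteinase. In the study's methods the cells were selected with puromycin as stable populations, without mention of single-cell clones, in 1 cell line, and the promoter that drove the cDNA was not given in the sources used here. The methods give triplicate samples per group and independent repeats of in vitro experiments in general, without saying whether the libraries of a group came from separate cultures, so the p-values measure the spread between these samples, which may be technical.

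Cells make serine from the glycolytic intermediate 3-phosphoglycerate in a chain of reactions run by PHGDH, PSAT1 and PSPH. The serine hydroxymethyltransferases SHMT1, in the cytosol, and SHMT2, in mitochondria, then turn serine into glycine and hand its side-chain carbon to folate. The MTHFD enzymes interconvert the carbon-carrying forms of folate, MTHFD2 and MTHFD1L in mitochondria and MTHFD1 in the cytosol, and the carbon is used to build purines, thymidylate and methyl groups. Many tumours depend on this pathway, and several of its genes are known targets of the stress-responsive factor ATF4 and of MYC.

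Promoter sequences were available from RefSeq (build GRCh38.p14, windows from 250 bases before to 50 bases after an annotated start) for 6 of the 8 enzymes. PSPH and SHMT2 had no entry. Each window was searched on both strands for TGATGNAA, the core of the element bound by C/EBP and ATF factors, for the E-box CACGTG, which MYC and related factors bind, and for the E2F sequences TTTGGCGC or TTTCGCGC. The windows of MTHFD1 and MTHFD2 are printed because these were the enzymes whose transcripts passed the test below, and that of MTHFD1L because it held matches to both of the first motifs. Capitals mark the matches, and each sequence runs 5′ to 3′ on the strand of the gene. The MTHFD1 window was at chr14:64388103-64388402 (plus strand), that of MTHFD1L at chr6:150866083-150866382 (plus strand) and that of MTHFD2 at chr2:74198365-74198664 (plus strand).
MTHFD1: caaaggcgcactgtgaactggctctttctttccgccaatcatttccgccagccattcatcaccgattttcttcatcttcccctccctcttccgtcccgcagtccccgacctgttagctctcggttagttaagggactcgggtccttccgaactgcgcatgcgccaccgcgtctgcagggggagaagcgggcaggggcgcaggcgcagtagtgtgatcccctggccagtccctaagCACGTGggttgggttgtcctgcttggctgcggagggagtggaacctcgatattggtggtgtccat
MTHFD1L: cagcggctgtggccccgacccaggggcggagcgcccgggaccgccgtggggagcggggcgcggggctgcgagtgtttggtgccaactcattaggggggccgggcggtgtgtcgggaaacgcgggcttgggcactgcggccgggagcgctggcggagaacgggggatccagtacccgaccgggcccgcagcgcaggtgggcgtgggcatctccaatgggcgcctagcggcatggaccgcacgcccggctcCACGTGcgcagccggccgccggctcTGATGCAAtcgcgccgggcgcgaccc
MTHFD2: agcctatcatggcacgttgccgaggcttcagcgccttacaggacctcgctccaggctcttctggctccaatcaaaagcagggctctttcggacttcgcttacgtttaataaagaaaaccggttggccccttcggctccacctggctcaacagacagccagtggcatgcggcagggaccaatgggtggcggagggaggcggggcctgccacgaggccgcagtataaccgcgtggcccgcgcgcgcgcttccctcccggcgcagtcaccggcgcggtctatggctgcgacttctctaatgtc

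The E-box of MTHFD1 began 15 bases before the RefSeq start. In the MTHFD1L window shown, the E-box began 1 base before the start and TGATGCAA began at base 24 after it, and 2 further windows of MTHFD1L that overlap this one held the same matches. The remaining MTHFD1L window, at chr6:151006758-151007057 (plus strand), held none. No match to any of the motifs was found in the windows of MTHFD2, PHGDH, PSAT1 and SHMT1. Among all 35116 promoter windows of this length, 7.26% held CACGTG, 3.62% held TGATGNAA and 1.15% held an E2F sequence. A match describes letters in the window and was not tested as a binding site.

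Read counts per library summed to between 13633249 and 16691458, and every OE-MMP28 total exceeded every Vector total. The share of counts from mitochondrial genes was 13.7% ± 1.62 for Vector and 10.8% ± 1.71 for OE-MMP28 (SD, n = 3 each). MMP28 itself was at 7.57 ± 2.11 FPKM for Vector and 14.0 ± 1.01 FPKM for OE-MMP28 (SD, n = 3 each), where FPKM is the fragment count per kilobase of exon, scaled to a total for each library. All 8 duct epithelium markers (EPCAM, KRT7, KRT8, KRT18, KRT19, CDH1, CLDN4 and MUC1) were detected, and their summed level was 2688 to 3672 FPKM in Vector and 3636 to 4447 FPKM in OE-MMP28. Of 8 macrophage markers only CD14 reached the filter on low counts, TYROBP was at a count of 0 throughout, and the summed level was 1.06 to 1.21 FPKM in Vector and 0.794 to 0.991 FPKM in OE-MMP28. Of 7 fibroblast markers only LUM reached it, and the summed level was 33.9 to 40.9 FPKM and 39.3 to 57.0 FPKM, in the same order.

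Of the 8 enzymes, 7 passed the filter on low counts and were tested with edgeR's quasi-likelihood test among 15319 genes. At an adjusted p (Benjamini-Hochberg over all genes tested) under 0.05, MTHFD1 rose, MTHFD2 fell and the other 5 were not called. Over all genes 23.4% were called, 11.7% as higher and 11.6% as lower in OE-MMP28, so 2 calls among 7 genes lay near that background. For 5 of the 7 enzymes the FPKM ranges of the groups were apart, 4 of them higher (SHMT1, SHMT2, MTHFD1 and MTHFD1L) and 1 lower (MTHFD2) in OE-MMP28. Over all genes tested the groups did not overlap for 38.1%, higher for 19% and lower for 19.1%. The median log2 fold change of the 7 enzymes was 0.41, against 0.01 for all genes tested. In these bulk samples a change in the number of cells that use a gene and a change in its RNA per cell cannot be told apart.

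**Figure D1:**
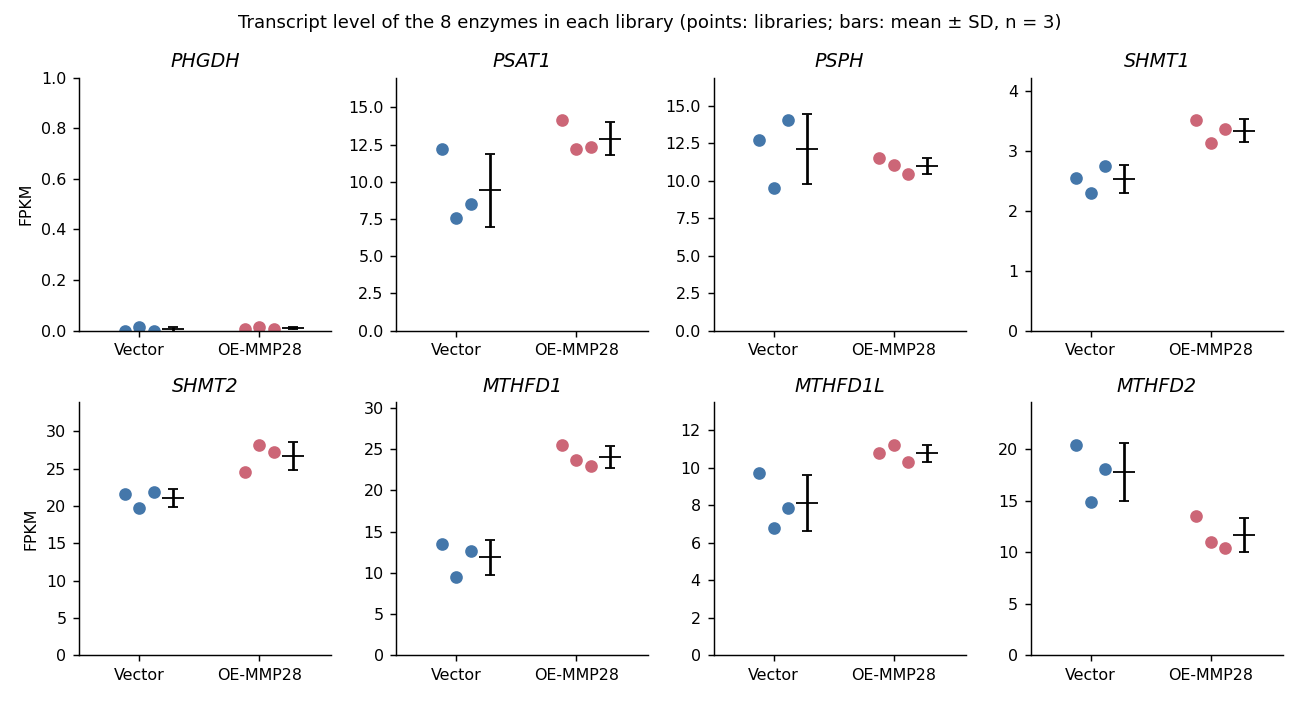
Transcript level (FPKM, linear axis from 0) of the 8 enzymes in each library, with Vector in blue and OE-MMP28 in red; black bars are mean ± SD (n = 3). MTHFD1 stood at 9.51 to 13.5 FPKM in Vector and 22.9 to 25.6 FPKM in OE-MMP28, MTHFD2 was lower in every OE-MMP28 library than in any Vector library, and PHGDH stayed at the bottom of an axis that ends at 1 FPKM.

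The serine synthesis branch was examined first. PHGDH (ENSG00000092621, chr1:119648411-119744226, plus strand), which takes the first step from 3-phosphoglycerate, had counts of 0, 2 and 0 in the Vector libraries, and 1, 2 and 1 reads were counted in those of OE-MMP28. These are at most 0.0161 FPKM. An observed count of 0 allows up to 3 expected counts, which was 0.200 CPM (counts scaled to the library total) in Vector replicate 1 and 0.206 CPM in Vector replicate 3, the libraries at 0. No count in the other libraries exceeded that number of reads, so no fold change is given. Such limits cover counting error only. No exon of PHGDH overlapped another annotated gene.

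PSAT1 (ENSG00000135069, chr9:78297143-78330093, plus strand) is the aminotransferase of the second step. Its level was 12.2, 7.57 and 8.50 FPKM in Vector replicates 1, 2 and 3, and 14.2, 12.2 and 12.3 FPKM in OE-MMP28 replicates 1, 2 and 3. Vector replicate 1 reached the range of the OE-MMP28 libraries, and the other two Vector libraries lay below it. The log2 fold change was 0.46 (SE 0.19, 95% interval 0.07 to 0.85, adjusted p = 0.0799 by edgeR). Without Vector replicate 1 it was 0.69 with an adjusted p of 0.00993, past the threshold.

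PSPH (ENSG00000146733, chr7:56011051-56051604, minus strand) encodes the phosphatase that releases free serine. It measured 12.7, 9.54 and 14.1 FPKM in the Vector libraries and 11.5, 11.1 and 10.5 FPKM in the OE-MMP28 libraries. The OE-MMP28 values all lay inside the range of the Vector values. The log2 fold change was -0.13 (SE 0.17, 95% interval -0.49 to 0.23, adjusted p = 0.634 by edgeR), which leaves room for a fall to 0.714-fold or a rise to 1.17-fold. PSAT1 and PSPH were thus between 7.57 and 14.2 FPKM in every library, while PHGDH had at most 2 counts in any library.

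At the serine to glycine step, the mitochondrial enzyme was the more abundant form in every library. SHMT2 (ENSG00000182199, chr12:57229327-57234935, plus strand) was at 21.5, 19.7 and 21.9 FPKM in Vector and at 24.6, 28.2 and 27.2 FPKM in OE-MMP28. Every OE-MMP28 value exceeded every Vector value, but the log2 fold change of 0.35 (SE 0.14, 95% interval 0.05 to 0.65) had an adjusted p of 0.0848 by edgeR and was not called.

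SHMT1 (ENSG00000176974, chr17:18327860-18363563, minus strand), the cytosolic form, was at 2.56, 2.30 and 2.76 FPKM in Vector and at 3.53, 3.14 and 3.37 FPKM in OE-MMP28. Again the groups did not overlap, and the log2 fold change of 0.41 (SE 0.17, 95% interval 0.06 to 0.76, adjusted p = 0.0858 by edgeR) was not called. SHMT1 and SHMT2 were called in none of 19 alternative fits. Part of the exons of SHMT1, 2.69% of their length, is shared with SMCR8 on the opposite strand, which had up to 883 counts, and whether counting used the strand was not given in the sources used here.

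The clearest difference was in the cytosolic branch. MTHFD1 (ENSG00000100714, chr14:64388031-64463457, plus strand) encodes the trifunctional cytosolic enzyme that makes and uses formyl- and methylene-tetrahydrofolate. It was at 13.5, 9.51 and 12.6 FPKM in Vector replicates 1, 2 and 3, and at 25.6, 23.7 and 22.9 FPKM in OE-MMP28 replicates 1, 2 and 3. The lowest OE-MMP28 library stood well above the highest Vector library, from 1205 to 3791 counts per library.

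The group means of MTHFD1 were 11.9 ± 2.12 FPKM and 24.1 ± 1.35 FPKM (SD, n = 3 each), and the fitted change was 2.04-fold (95% interval 1.63 to 2.55; log2 fold change 1.03, SE 0.16, adjusted p = 0.000101 by edgeR). In all 19 alternative fits MTHFD1 was called as higher. Among the 15319 genes tested, 511 had a larger rise. Exons of 3 genes on the opposite strand overlap MTHFD1, namely AL122035.2 (8.06% of its exon length, at most 45 counts), ZBTB25 (1.90%, at most 452 counts) and AL122035.1 (1.08%, at most 13 counts).

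In mitochondria the picture was mixed. MTHFD1L (ENSG00000120254, chr6:150865549-151101887, plus strand), the mitochondrial enzyme that releases formate for export to the cytosol, was at 9.72, 6.76 and 7.82 FPKM in Vector and at 10.8, 11.2 and 10.3 FPKM in OE-MMP28. The groups did not overlap, although Vector replicate 1 came close. The log2 fold change was 0.42 (SE 0.16, 95% interval 0.08 to 0.76, adjusted p = 0.0689 by edgeR), and without Vector replicate 1 it was 0.57 with an adjusted p of 0.0222.

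MTHFD2 (ENSG00000065911, chr2:74198562-74217565, plus strand), the mitochondrial methylene-tetrahydrofolate dehydrogenase known for its high expression in many tumours, moved the other way. Its level was 20.5, 14.8 and 18.1 FPKM in Vector replicates 1, 2 and 3, and 13.5, 11.0 and 10.4 FPKM in OE-MMP28 replicates 1, 2 and 3. The highest OE-MMP28 library lay just under the lowest Vector library. The means were 17.8 ± 2.82 FPKM and 11.6 ± 1.64 FPKM (SD, n = 3 each), and the fitted change was 0.658-fold (95% interval 0.521 to 0.832; log2 fold change -0.60, SE 0.16, adjusted p = 0.0106 by edgeR).

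A larger fall than that of MTHFD2 was measured for 2079 of the genes tested. The call was made in 14 of 19 alternative fits. It was lost without OE-MMP28 replicate 2 (log2 fold change -0.58, adjusted p = 0.0658), without OE-MMP28 replicate 3 (-0.53, adjusted p = 0.0503) and by limma on unfiltered log2(FPKM + 1) values (-0.57, adjusted p = 0.110). It was also lost when the median change of the genes within 5 Mb (-0.14, adjusted p = 0.619) or of the whole chromosome (-0.20, adjusted p = 0.448) was subtracted. SLC4A5 on the opposite strand shares 27.2% of the exon length of MTHFD2 but had at most 13 counts in any library. Of 14 annotated pseudogenes named after the 8 enzymes, 7 of them after MTHFD2, none had more than 4 counts in a library.

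Because FPKM is a level per length, the enzymes can also be ordered within a group. In Vector the order was SHMT2, MTHFD2, PSPH, MTHFD1, PSAT1, MTHFD1L, SHMT1 and PHGDH. The ranges of SHMT2 and MTHFD2 overlapped, as did those of each successive pair from PSPH to MTHFD1L, whereas MTHFD2 and PSPH, MTHFD1L and SHMT1, and SHMT1 and PHGDH were apart. In OE-MMP28 the order was SHMT2, MTHFD1, PSAT1, MTHFD2, PSPH, MTHFD1L, SHMT1 and PHGDH. There SHMT2 and MTHFD1 overlapped, MTHFD1 and PSAT1 were apart, and PSAT1, MTHFD2, PSPH and MTHFD1L overlapped in succession. By FPKM MTHFD1 thus moved from rank 4 to rank 2 and MTHFD2 from rank 2 to rank 4. The order depends on the exon lengths that FPKM divides by, from 2188 bases for PSAT1 to 9377 bases for MTHFD1. In counts MTHFD1 was above SHMT2 in Vector replicates 1 and 3 (1942 and 1748 against 1594 and 1562). The summed level of the 8 enzymes was 92.8, 70.2 and 85.8 FPKM in the Vector libraries and 104, 101 and 97.0 FPKM in the OE-MMP28 libraries, and the groups did not overlap. Of these sums MTHFD1 gave 13.5, 9.51 and 12.6 FPKM in Vector and 25.6, 23.7 and 22.9 FPKM in OE-MMP28. Without MTHFD1 the sums of the groups overlapped, so they do not show a rise shared by the enzymes.

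Ratios between enzymes within a library were compared next, with the two-sided exact permutation test, whose smallest p with 3 against 3 libraries is 0.1. MTHFD2 to MTHFD1, a mitochondrial to cytosolic comparison, was 1.51, 1.56 and 1.43 in the Vector libraries and 0.528, 0.464 and 0.455 in the OE-MMP28 libraries. In FPKM the mitochondrial transcript was thus the higher of the pair in all 3 Vector libraries and the lower in all 3 OE-MMP28 libraries. That crossing depends on the exon lengths in FPKM, 9377 bases for MTHFD1 and 4870 bases for MTHFD2. In counts MTHFD1 was the higher in every library (in Vector 1942, 1205 and 1748 against 1523, 977 and 1299). The ratio differed 3.12-fold between groups, whatever the lengths (log2 difference -1.64, exact p = 0.1, 0.15 after adjustment over 3 ratios). The ratio of MTHFD1L to MTHFD1 was 0.717, 0.711 and 0.619 in Vector and 0.421, 0.473 and 0.450 in OE-MMP28 (log2 difference -0.61, exact p = 0.1, adjusted 0.15). These p-values are the smallest that the design allows and do not reach 0.05. MTHFD1 lies on chromosome 14 and MTHFD2 on chromosome 2, whose genes had median log2 fold changes of 0.56 and -0.41. What part these shifts had in the ratios was not tested.

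By contrast, the ratio of SHMT2 to SHMT1 was 8.42, 8.58 and 7.94 in Vector and 6.97, 9.00 and 8.05 in OE-MMP28, with overlapping groups (log2 difference -0.06, exact permutation p = 0.8). A ratio of PSAT1 to PHGDH was planned but could not be formed, because PHGDH was at a count of 0 in 2 Vector libraries.

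**Figure D2:**
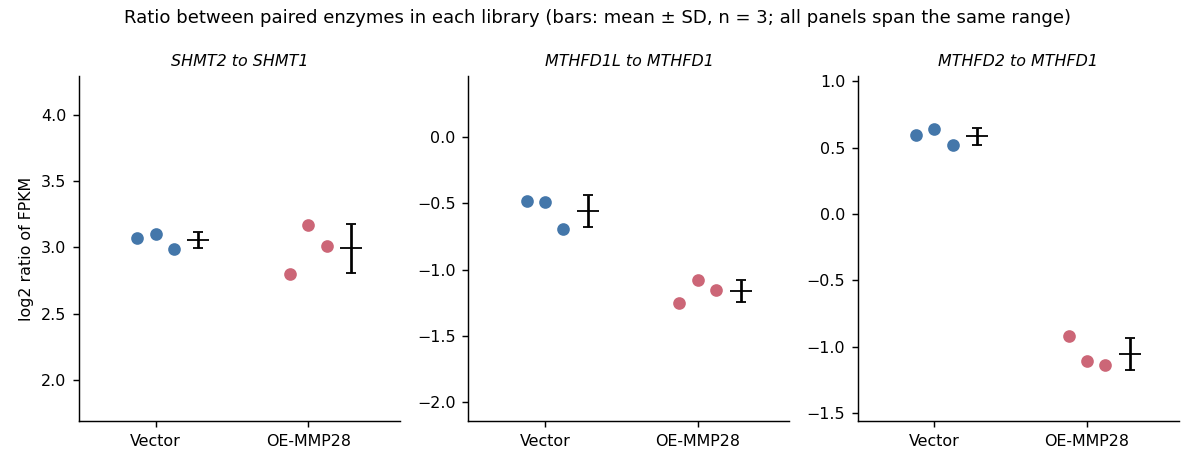
Log2 ratio of FPKM between paired enzymes in each library (Vector blue, OE-MMP28 red; bars are mean ± SD, n = 3), with axes of equal span in all panels. The log2 ratio of MTHFD2 to MTHFD1 differed by -1.64 between the groups, that of MTHFD1L to MTHFD1 by -0.61 and that of SHMT2 to SHMT1 by -0.06. The change of sign for MTHFD2 to MTHFD1 holds for FPKM, which divides by exon length, and not for counts. The genes on the chromosomes of MTHFD2 and MTHFD1 had median log2 fold changes of -0.41 and 0.56.

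MTHFD1 and MTHFD2 lie on chromosomes whose genes shifted as a whole, in the same direction as the enzyme. On chromosome 14, 249 of 492 genes tested were called as higher and 11 as lower in OE-MMP28, and the median log2 fold change of 0.56 was the highest of the 22 autosomes. On chromosome 2, 21 of 1021 genes were called as higher and 354 as lower, and the median was -0.41, at rank 21 of 22. The medians of the chromosomes of the other 6 enzymes lay between -0.07 and 0.12.

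The same was seen nearby. The 53 genes tested within 5 Mb of MTHFD1 had a median log2 fold change of 0.39, with 20 called as higher and 2 as lower. The largest change among them was a fall of GPX2, which encodes a glutathione peroxidase (log2 fold change -1.81, adjusted p = 1.22e-05 by edgeR). The 71 genes within 5 Mb of MTHFD2 had a median of -0.47, with 2 called as higher and 31 as lower. The largest change there was that of CYP26B1, which encodes a retinoic acid hydroxylase (log2 fold change -2.18, adjusted p = 0.00107).

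**Figure D3:**
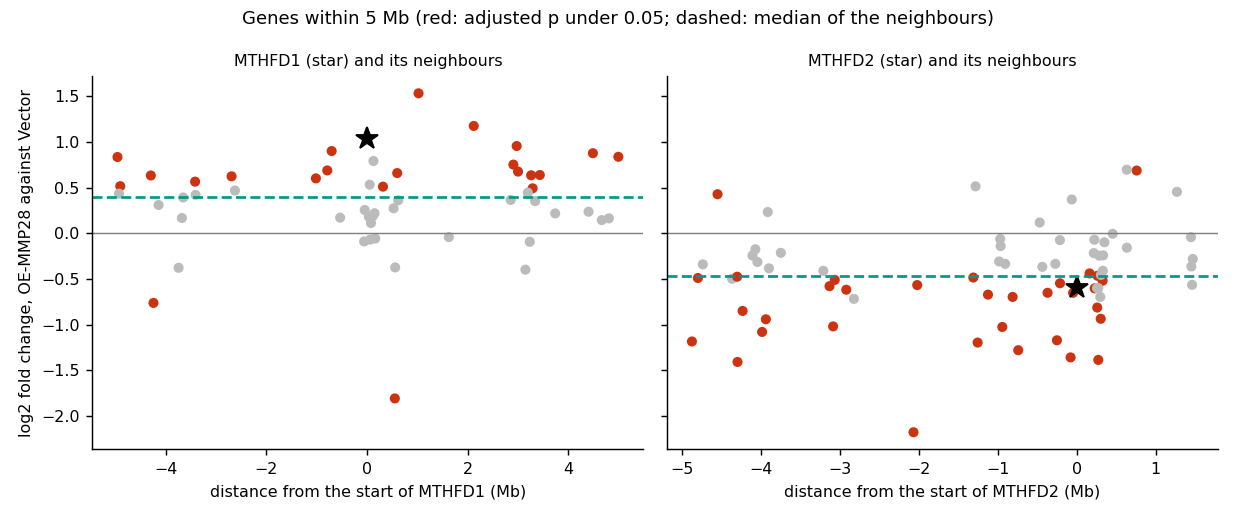
Log2 fold change (OE-MMP28 against Vector) of the genes tested within 5 Mb of MTHFD1 (left) and MTHFD2 (right), against distance in Mb from the start of the enzyme's gene; the star is the enzyme, red points are genes with an adjusted p under 0.05, and the dashed line is the median of the neighbours. The neighbours of MTHFD1 centred on 0.39, below MTHFD1 itself at 1.03, and those of MTHFD2 centred on -0.47, near MTHFD2 itself at -0.60.

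When the median of these neighbours was subtracted in the fit, MTHFD1 still differed (log2 fold change 0.63, adjusted p = 0.00845 by edgeR), whereas MTHFD2 did not pass the test (-0.14, 95% interval -0.47 to 0.20, adjusted p = 0.619). With the median of the whole chromosome subtracted instead, a setting added after the data were seen, the values were 0.46 (adjusted p = 0.0456) for MTHFD1 and -0.20 (adjusted p = 0.448) for MTHFD2. These fits subtract a median and take no account of the spread of the neighbours, whose quartiles were 0.17 and 0.63 around MTHFD1 and -0.68 and -0.22 around MTHFD2. MTHFD1 lay above that range and MTHFD2 within it. What part the chromosome-wide shift had in either difference was not tested.

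Around the other enzymes the medians within 5 Mb were closer to 0. They were -0.14 for PSAT1 (14 genes), 0.24 for PSPH (14 genes), 0.09 for SHMT1 (82 genes), -0.01 for SHMT2 (137 genes), 0.15 for MTHFD1L (38 genes) and 0.15 for PHGDH (30 genes). With the local median subtracted, PSAT1 passed the test (log2 fold change 0.60, adjusted p = 0.0352 by edgeR), while MTHFD1L fell back to 0.27 (adjusted p = 0.289). With the chromosome median subtracted PSAT1 did not pass (0.40, adjusted p = 0.147). The neighbour with the largest change was UST near MTHFD1L, a sulfotransferase gene with a log2 fold change of 4.36 at 2.12 Mb before its start.

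**Figure D4:**
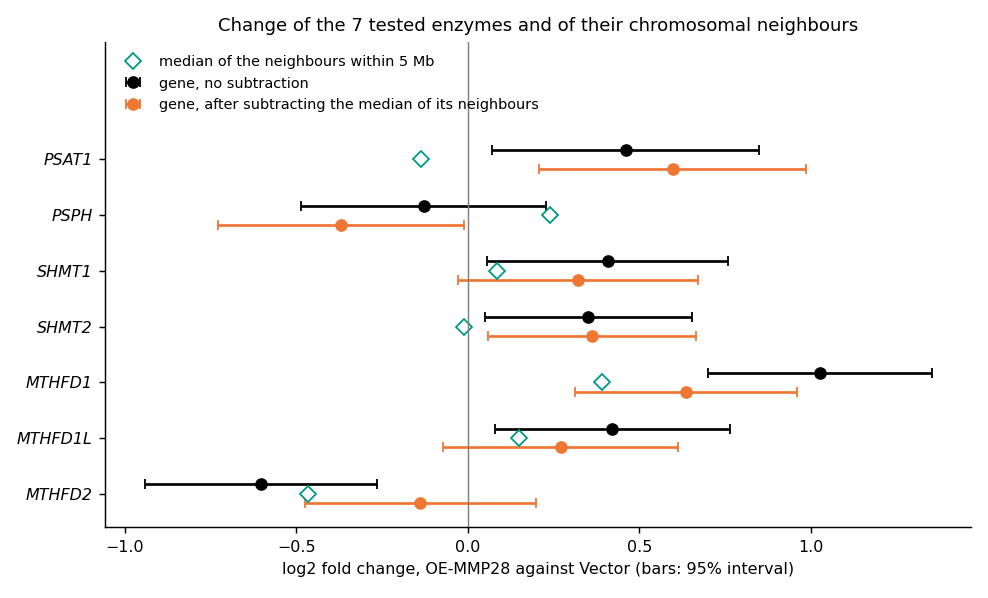
Log2 fold change (OE-MMP28 against Vector) of the 7 tested enzymes with 95% intervals, as fitted (black) and after subtraction of the median of the genes within 5 Mb (orange), with that median as an open diamond. MTHFD1 stayed above 0 in both fits (1.03 and 0.63), and the interval of MTHFD2 reached across 0 after the subtraction (-0.60 and -0.14).

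Pearson's r of log2 CPM over the 6 libraries was taken between each called enzyme and 12258 genes of at least 1 FPKM. It describes likeness across 6 points that share 2 groups, and carries no test. Among the genes most like MTHFD1 were MED6 (r = 0.998) and SELENOT (r = 0.997). The genes most like MTHFD2 were CRIPT (r = 0.997), DCAF17 (r = 0.995) and SIRT1 (r = 0.994).

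The surrounding pathway was described with 7 lists of 83 genes, of which 67 were tested, 9 rose and 6 fell. That is 22.4% of the genes tested, near the background of 23.4% over all genes. Without OE-MMP28 replicate 2 the genes called numbered 7 in these lists and 2029 over all genes. Among 14 further folate enzymes and carriers tested, TYMS alone was called, or 7.14%. TYMS, thymidylate synthase, uses the one-carbon unit for DNA building, and was at 7.52, 6.47 and 7.72 FPKM in Vector and at 10.6, 11.1 and 11.0 FPKM in OE-MMP28. Its groups did not overlap (log2 fold change 0.60, SE 0.17, adjusted p = 0.0130 by edgeR).

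The median of the folate list was -0.03. In the glycine cleavage system, which also feeds the folate pool, GLDC had 1 to 5 and AMT 2 to 10 counts per library and neither was tested. By edgeR 0 of the other two members were called, with 1 at an unadjusted p under 0.05, and 0 by DESeq2 or limma voom. GCSH had a log2 fold change of -0.48 (adjusted p = 0.136) and DLD one of 0.02.

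De novo purine synthesis, a main consumer of formyl-folate, had 13 genes tested, of which 3 rose and 0 fell, with a median log2 fold change of 0.29. That is 23.1% called, all as higher, against 23.4% over all genes, of which 11.7% were called as higher. With the local median subtracted 1 was called, and with the chromosome median subtracted 3 were called, all as higher. Over all 15319 genes tested, 1135 and 1215 were called as higher in these fits. At an unadjusted p under 0.05 the list held 5 genes, and DESeq2 and limma voom each called 3. GMPS, which makes GMP, was at 10.3, 9.04 and 10.9 FPKM in Vector and 20.0, 17.4 and 16.6 FPKM in OE-MMP28 (log2 fold change 0.84, SE 0.15, adjusted p = 0.000433 by edgeR). With the local median subtracted it was 0.29 (adjusted p = 0.204), and with that of chromosome 3 it was 0.63 (adjusted p = 0.00622). PRPS2, which supplies the ribose phosphate, rose by 0.55 on the log2 scale (adjusted p = 0.0141). Subtracting the local median took PRPS2 to an adjusted p of 0.0588, and subtracting the chromosome median took it to 0.0434. PFAS, the third, rose by 0.49 (adjusted p = 0.0450), although its groups overlapped in FPKM and it was called in 7 of 19 alternative fits (adjusted p up to 0.229). It was named after its values were seen. GART and ATIC, the enzymes that take the folate-bound carbon, had log2 fold changes of 0.23 (adjusted p = 0.315) and 0.16 (adjusted p = 0.494).

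Of 8 genes tested in the methionine cycle and transsulfuration, 1 was called, or 12.5% against 23.4% over all genes. AHCYL2, a relative of the enzyme that hydrolyses S-adenosylhomocysteine, fell by 0.55 on the log2 scale (adjusted p = 0.0182 by edgeR), and the median of the list was -0.11. Of 10 serine and glycine carriers tested, 2 fell and 0 rose, or 20% called against 23.4% over all genes, of which 11.6% were called as lower. DESeq2 and limma voom also called 2, the number with an unadjusted p under 0.05. SFXN3, a sideroflexin and so a relative of the mitochondrial serine carrier SFXN1, was at 18.8, 23.5 and 23.3 FPKM in Vector and 12.3, 12.1 and 13.1 FPKM in OE-MMP28 (log2 fold change -0.80, SE 0.15, adjusted p = 0.000899). It lies on chromosome 10, whose median of -0.47 was the lowest of the autosomes, and was not called with the local median subtracted (-0.32, adjusted p = 0.160) or with that of the chromosome subtracted (-0.33, adjusted p = 0.143). SLC38A5, a plasma membrane amino acid carrier, had counts of 20, 19 and 21 in Vector and 7, 4 and 8 in OE-MMP28. It passed the filter on low counts only through the group where it was higher, so its place among the falls (log2 fold change -1.79, adjusted p = 0.00819) is limited by that filter. SFXN1 itself had a log2 fold change of 0.30 (adjusted p = 0.148), and was named after its values were seen.

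Among 11 genes tested that use or break down serine, 3 rose and 2 fell, and the median log2 fold change was -0.05. That is 45.5% called, against 23.4% over all genes. The rises were in SPTLC3 and SPTLC2, subunits of serine palmitoyltransferase that joins serine to a fatty acid in the first step of sphingolipid synthesis, and in SDSL, a serine dehydratase-like gene. SPTLC3 was at 0.560, 0.677 and 0.589 FPKM in Vector and at 2.58, 2.23 and 2.37 FPKM in OE-MMP28, and its log2 fold change was 1.99 (SE 0.20, adjusted p = 5.65e-07 by edgeR). SPTLC2, which lies on chromosome 14 as MTHFD1 does, rose by 0.71 and SDSL by 0.82 (adjusted p = 0.00197 and 0.0132). With the local median subtracted neither was called, SPTLC2 at 0.10 (adjusted p = 0.716) and SDSL at 0.56 (adjusted p = 0.104). With the chromosome median subtracted SPTLC2 was at 0.15 (adjusted p = 0.551) and SDSL at 0.71 (adjusted p = 0.0396). SERINC2 fell by 0.57 and PTDSS2, a phosphatidylserine synthase, fell by 0.52 (adjusted p = 0.0154 and 0.0310). Subtracting the local median took PTDSS2 to an adjusted p of 0.0546, and with the chromosome median subtracted it was at -0.77 (adjusted p = 0.00370). In this list 1 rose and 1 fell with the local median subtracted, and 2 rose and 2 fell with the chromosome median subtracted. Over all 15319 genes tested, 1135 rose and 1225 fell in the first of these fits, and 1215 rose and 1285 fell in the second.

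In lower glycolysis, of which 3-phosphoglycerate is an intermediate, 2 of 9 genes rose and 1 fell, with a median of 0.24. That is 33.3% called, against 23.4% over all genes. ENO1, the main enolase, rose by 0.61 and PKM, pyruvate kinase, rose by 0.45 on the log2 scale (adjusted p = 0.00382 and 0.0213 by edgeR). PKM was not called with the local median subtracted (0.36, adjusted p = 0.0824), but was called with the chromosome median subtracted (0.44, adjusted p = 0.0350). ENO2, whose groups overlapped, fell by 0.85 (adjusted p = 0.0118), and was named after its values were seen.

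**Figure D5:**
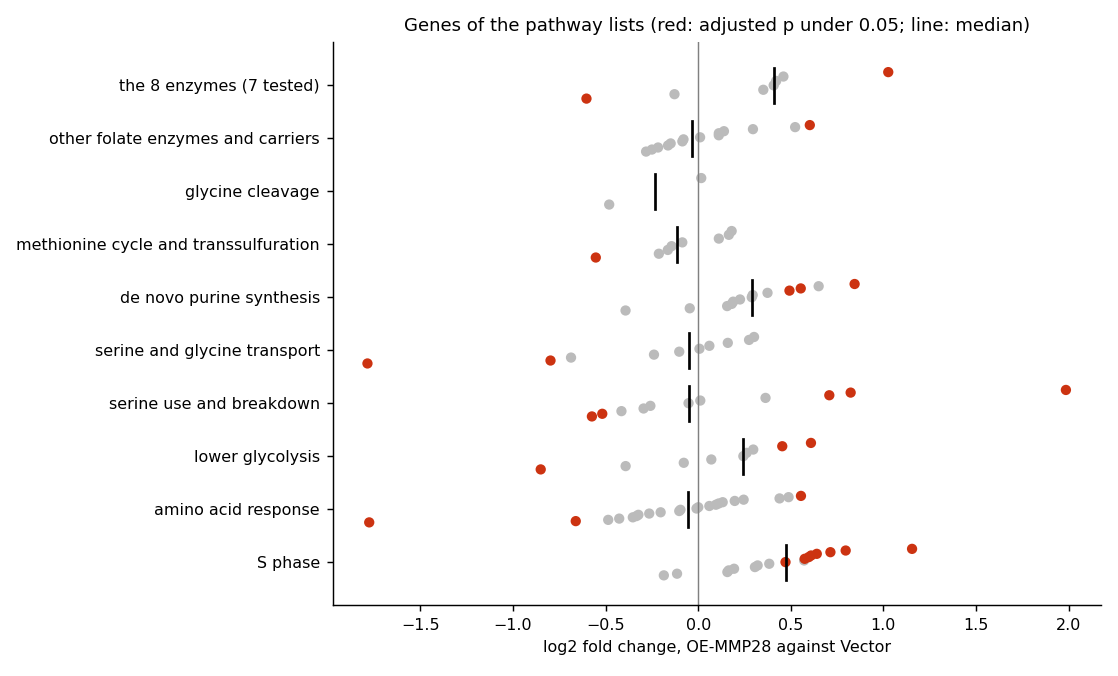
Log2 fold change (OE-MMP28 against Vector) of each tested gene in the 8 enzymes and in 9 pathway and response lists; red points had an adjusted p under 0.05 and vertical lines mark list medians. The median was 0.41 for the enzymes, -0.03 for the other folate genes, 0.29 for purine synthesis, -0.05 for the amino acid response and 0.47 for the S phase genes.

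Known regulators of the pathway were read last. ATF4 was at 118 ± 7.50 FPKM in Vector and 102 ± 11.7 FPKM in OE-MMP28 (SD, n = 3 each, log2 fold change -0.20, adjusted p = 0.338 by edgeR). MYC was at 62.5 ± 11.5 and 66.6 ± 4.21 FPKM (log2 fold change 0.10, adjusted p = 0.672). Among 22 genes tested of the amino acid response, which ATF4 drives, 1 rose and 2 fell, and the median was -0.05. That is 13.6% called, against 23.4% over all genes. CHAC1, which degrades glutathione, fell by 1.78 on the log2 scale (adjusted p = 0.00104) and TRIB3, a pseudokinase, fell by 0.66 (adjusted p = 0.00606). WARS1, a tRNA synthetase gene on chromosome 14, rose by 0.55 (adjusted p = 0.0112), but was at 0.03 with the local median subtracted (adjusted p = 0.927) and at -0.01 with the chromosome median subtracted (adjusted p = 0.982). ASNS, asparagine synthetase, had 31 to 77 counts and a log2 fold change of -0.33 (adjusted p = 0.470).

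Among the 5 genes tested of the MYC family list, 0 rose and 2 fell, MXD1 by 1.41 and MXI1 by 1.34 on the log2 scale. Both encode antagonists of MYC at the E-box and were named after their values were seen. The other 3 genes tested, MYC, MAX and MNT, were not called. MNT had a log2 fold change of -0.19 (adjusted p = 0.435 by edgeR) and MAX one of 0.36 (adjusted p = 0.102). MNT and MAX were also named after their values were seen. The edgeR calls were 40% of the genes tested in this list, against 23.4% over all genes, of which 11.6% were called as lower. DESeq2 and limma voom each called 2 of its genes, and 3 had an unadjusted p under 0.05. MXD1 lies on chromosome 2 and MXI1 on chromosome 10, and with the local median subtracted they fell by 0.92 and 0.89.

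Of 17 S phase genes, 8 rose and 0 fell, with a median log2 fold change of 0.47. That is 47.1% called, all as higher, against 23.4% over all genes, of which 11.7% were called as higher. With the local median subtracted 13 rose, and with the chromosome median subtracted 10 rose. In these fits 1135 and 1215 of all 15319 genes tested were called as higher. DESeq2 and limma voom each called 8, and 10 had an unadjusted p under 0.05. MCM2, a subunit of the replicative helicase, was at 9.71, 6.81 and 8.46 FPKM in Vector and 17.4, 22.5 and 15.3 FPKM in OE-MMP28 (log2 fold change 1.15, SE 0.18, adjusted p = 0.000112 by edgeR), and its log2 fold change was 0.61 (adjusted p = 0.0228) with the local median subtracted. MCM5 rose by 0.80, PCNA, the sliding clamp, by 0.71, CDC6 by 0.64 and RRM1, a ribonucleotide reductase subunit, by 0.60 on the log2 scale. With the chromosome median subtracted RRM1 was at 0.34 (adjusted p = 0.157). MKI67, a proliferation marker named after its value was seen, was at 37.4 ± 2.27 and 34.3 ± 4.20 FPKM (SD, n = 3 each, log2 fold change -0.11, adjusted p = 0.606). The part of S phase genes in the differences of MTHFD1 and TYMS was not tested.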

How the data were processed

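RNA of 6 AsPC-1 libraries was measured, 3 per group, grouped and numbered as in GEO's labels. In 1 deposited table the authors gave raw read counts per gene, and the submitters' processing notes name HISAT2 2.0.5 and featureCounts 1.5.0-p3. The deposited FPKM values were made by the authors from the same counts and gene lengths, with a scaling total for each library that lay -2.01% to 2.02% from the sum of its counts. The strand setting and the handling of reads with several matches were not given in the sources used here. Identifiers, coordinates and exon lengths of all 58735 genes equal those of GENCODE release 29 (GRCh38). The authors' own log2 fold changes, p-values, adjusted p-values and group means were not used. All per-sample columns were matched to a sample, with 0 left over.

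Counts were filtered with filterByExpr (minimum count 10, minimum total 15), scaled by TMM and fitted with group alone by edgeR 4.0.16 in R 4.3.3. limma 3.58.1 and DESeq2 1.42.0 served as alternatives, with log2(FPKM + 1) for limma and a minimum of 0.5 FPKM. Confidence intervals are 95%. The edgeR fit was tested on simulated data, as were the replicate block, DESeq2, limma voom and limma on log2(FPKM + 1). The other alternative fits were not. Depth per library was 13633249 to 16691458 counts, and no pair of libraries was a duplicate. Ratios of FPKM were compared with the two-sided exact permutation test (scipy 1.17.1). An offset fit subtracts from a gene the median log2 fold change of the genes within 5 Mb (at least 10 genes) or of its chromosome.

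The 8 enzymes and all lists were chosen with earlier results of these data known. Named genes are the 8 enzymes, MMP28, ATF4, MYC and TYMS, up to 5 genes per pathway, amino acid response or S phase list with an adjusted p under 0.05 and groups apart, genes and pseudogenes that share sequence with an enzyme, the 3 genes most like each called enzyme, and the neighbour with the largest change. Markers are named by list, and GART, ATIC, GCSH, DLD, GLDC and AMT were added for their role in the pathway. Some genes under this rule are not reported here.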

Additional observations from a re-analysis of the deposited data

How the results depend on the processing

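The rise of MTHFD1 kept its direction and call in all 19 alternatives (log2 fold change 0.46 to 1.13), and the 7 enzymes tested kept their directions in all of them. All genes called numbered 3579, against 1974 by limma on log2(FPKM + 1), 1970 with a pseudocount of 0.1 and 670 with no filter on low values. There were 2360 with the local median offset and 2500 with the chromosome median offset. When 1 library was left out they numbered 2029 to 3865, lowest without OE-MMP28 replicate 2. Without Vector replicate 3 the count was 2367. Enzymes called as higher numbered 1, but 2 with the local median offset and 1 to 3 in the leave-one-out fits, with 3 without Vector replicate 1. Enzymes called as lower numbered 1, but 0 by limma with no filter (MTHFD2 -0.57, adjusted p = 0.110), 0 with either offset and 0 to 1 in the leave-one-out fits. Genes called in the 7 pathway lists numbered 15, against 9 by limma with either pseudocount and 4 with no filter. There were 9 with the local median offset, 14 with the chromosome median offset and 7 to 15 in the leave-one-out fits, lowest without OE-MMP28 replicate 2. The cause of these differences in counts was not tested. The log2 difference of the ratio of SHMT2 to SHMT1 ran from -0.15 to 0.035 and changed sign without OE-MMP28 replicate 1 (0.035). Same-numbered libraries did not deviate together (Pearson's r across genes 0.02, 0.01 and -0.09). With the replicate number as a block, 3685 genes were called, the enzymes kept 1 higher and 1 lower, and 16 pathway genes were called. PHGDH, GLDC and AMT did not pass the filter on low counts and were not tested.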
